A study of Mus musculus with 12 samples.

Results

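The immunity-related GTPases (IRGs) measured here are 7 mouse genes, Irgm1, Irgm2, Igtp, Iigp1, Tgtp1, Tgtp2 and Ifi47, taken by their symbols from the 43453 genes of a table of RNA counts in bone marrow-derived macrophages (BMDMs). All 7 had enough counts to be tested in every comparison. The table holds 12 libraries, 3 for each of 4 groups, and it was made to ask which responses of macrophages to lipopolysaccharide (LPS, a bacterial cell wall component sensed by the receptor TLR4) need TLR4. All cells were of C57BL/6 mice and had been grown from bone marrow over 7 days in M-CSF (50 ng/mL), the growth factor that drives macrophage differentiation. The genotypes were tlr4f/f, in which the tlr4 gene carries the sites cut by Cre but no Cre is present, and tlr4f/f-lysM-cre, in which the myeloid promoter of the lysozyme gene drives Cre, so that deletion is limited to cells that use this promoter and need not be complete. Each genotype was left unstimulated or given LPS at 1 µg/mL for 6 h. By the headings of the deposited columns, the groups are called resting f/f and LPS f/f for tlr4f/f, and resting cre and LPS cre for tlr4f/f-lysM-cre, below. The study calls the libraries of a group independent replicates without saying whether they came from separate mice or separate cultures, so the p-values below measure the spread between libraries.

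IRGs are GTP-binding proteins that interferons induce strongly in mouse cells, and they protect cells against bacteria and protozoa that live inside vacuoles. They fall in a pair of classes that differ in the loop that binds GTP. The GMS proteins Irgm1, Irgm2 and Igtp (Irgm3) carry a methionine in that loop, sit on the cell's own membranes and keep the other class inactive there, whereas the GKS proteins Iigp1 (Irga6), Tgtp1 and Tgtp2 (Irgb6) and Ifi47 (Irgd) carry a lysine, gather on the vacuole of the microbe and break it open. In macrophages LPS reaches these genes mainly through interferon beta that the cells themselves release, which acts on interferon-stimulated response elements (ISREs) in promoters, while interferon gamma acts on gamma-activated sites (GAS).

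The codons of this loop are shown because they set the classes apart, with the codon that gives each class its name in capitals. They were read 5′ to 3′ on the coding strand from the GENCODE transcripts of genome build GRCm38, and each lies in the last exon of its gene.
Irgm1, chr11:48866761-48866784, minus strand, exon 3 of 3: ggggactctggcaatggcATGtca
Irgm2, chr11:58219695-58219718, plus strand, exon 2 of 2: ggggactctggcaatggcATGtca
Igtp, chr11:58206275-58206298, plus strand, exon 3 of 3: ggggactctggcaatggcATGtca
Tgtp1, chr11:48987667-48987690, minus strand, exon 2 of 2: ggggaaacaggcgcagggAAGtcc
Tgtp2, chr11:49059534-49059557, minus strand, exon 2 of 2: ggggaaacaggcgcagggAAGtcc
Ifi47, chr11:49095648-49095671, plus strand, exon 3 of 3: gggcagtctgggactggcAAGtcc
The 24 bases were identical in the 3 GMS genes, with ATG for methionine, and the 3 GKS genes shown had AAG for lysine in its place. Over their whole coding sequences the GMS genes were 61.0% to 64.7% identical to each other, whereas Tgtp1 and Tgtp2 were identical at 1241 of 1245 bases (99.7%).

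Of the 7 genes, 6 lie on chromosome 11. Irgm1, Tgtp1, Tgtp2 and Ifi47 stand within 235.0 kb (chr11:48861968-49096974) and Igtp and Irgm2 within 23.2 kb (chr11:58199556-58222782). This arrangement bears on what the counts can resolve. Of the 150-base stretches of the Tgtp1 transcript, as long as one sequenced read, 71.3% also occurred in Tgtp2, and 71.7% of those of Tgtp2 occurred in Tgtp1, so the split of reads between this pair is uncertain. Between Igtp and Irgm2 the shared portion was 0.854% of Igtp, and Irgm1, Iigp1 and Ifi47 shared no such stretch with another gene. The annotation also has the intervals of Igtp and Irgm2 overlap on the same strand, and that of Tgtp1 overlap part of Gm12185, another IRG gene on the same strand, and it shows Olfr56 running across Tgtp1 and Tgtp2 on the opposite strand and across Ifi47 on the same strand. Whether the counting used strand is not given in the sources used here.

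Promoters were compared because the 7 genes moved together, as shown further on. Windows of 300 bases around the RefSeq transcription start (build GRCm38.p6) were at hand for 6 of the 7 genes, without Iigp1. The core of an ISRE, written here as GAAA, any 2 bases and GAAA again and sought on both strands, occurred in 5 of these 6 windows and in 3.44% of all 32851 promoters. The 100 bases before the start are printed for 3 of these genes, on the strand of transcription and with the ISRE core in capitals.
Igtp, chr11:58199456-58199555, plus strand: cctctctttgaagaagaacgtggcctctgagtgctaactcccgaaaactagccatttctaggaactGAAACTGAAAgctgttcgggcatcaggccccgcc
Irgm2, chr11:58214877-58214976, plus strand: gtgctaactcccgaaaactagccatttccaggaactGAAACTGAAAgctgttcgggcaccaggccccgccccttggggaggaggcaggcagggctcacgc
Tgtp2, chr11:49064213-49064312, minus strand: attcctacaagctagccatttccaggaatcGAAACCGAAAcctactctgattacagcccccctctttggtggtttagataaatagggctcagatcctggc
The core began 34 bases before the start in Igtp, 64 in Irgm2, 70 in Tgtp2 and 77 in Tgtp1. Irgm1 had 2 matches that overlap each other, beginning 30 and 24 bases before its start, but GENCODE places all 100 bases before that start, and 12 of those before the start of Tgtp1, in exons of the gene itself. The window of Irgm1 therefore lies downstream of the start of the gene in that annotation. So do the windows of Irgm2 and Tgtp1. GENCODE begins Irgm2 at position 58199618 and Tgtp1, on the minus strand, at position 48994172. The core of a GAS (TTC, any 3 bases and GAA) was present in Igtp, Irgm2, Tgtp1 and Tgtp2, a little upstream of the ISRE core and not overlapping it, against 8.30% of all promoters. Neither set of letters was found in the window of Ifi47. The NF-kB core (GGG, any 5 bases and CC, on either strand) was in 2 of the 6 windows (Igtp and Irgm2) and in 50.8% of all promoters. The windows of Igtp and Irgm2 aligned at 90.4% identity over 270 positions and those of Tgtp1 and Tgtp2 at 91.4% over 162. These matches describe letters only, and no binding was measured.

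The headings of the libraries need care before any level is read. In the 3 libraries headed LPS f/f, counts of Tlr4, the targeted gene, lay between 24.5 and 31.2 CPM (counts scaled to library size with trimmed mean of M values, TMM, factors), near the 24.4 to 27.4 CPM of those headed LPS cre. Those headed resting cre reached 94.7 to 117 CPM, within the 77 to 146 CPM of resting f/f. Lyz2, the gene that the Cre insertion disrupts, was at 10.4 to 14.4 CPM in the libraries headed LPS f/f, at 52.4 to 75.3 CPM in those headed LPS cre and at 5953 CPM or more in the other 6. Il1b, a cytokine that LPS induces in macrophages, was at 1633 to 8224 CPM in the libraries headed resting cre and at 2.69 to 3.61 CPM in those headed LPS f/f. It was at 0.075 to 6.95 CPM in resting f/f and at 2488 to 2671 CPM in LPS cre. Tlr4, Lyz2 and Il1b thus go against the headings. Each comparison is named in a pair of readings: as headed, and with resting cre and LPS f/f swapped. The exchange alters the name of a contrast and not its values. Deposited counts summed over 1 transcript per gene were 33577440 to 56445989 per library. Between replicates, the biological coefficient of variation fitted by edgeR came to 37.3% for resting f/f and 34.9% for resting cre, but to 8.50% for LPS f/f and 8.74% for LPS cre. Defining macrophage markers were present in every group, at a summed 13800 to 29580 CPM, 17880 to 21280, 4453 to 4715 and 7767 to 7992 in the same order of groups. Much of this sum was Lyz2 in the resting groups, and the 7 other macrophage markers summed to 6253 to 7217 CPM in resting f/f, 10560 to 13690 in resting cre, 4443 to 4700 in LPS f/f and 7715 to 7917 in LPS cre, the order of groups found for the IRGs below. Their part in the results was not tested. Among markers of other cells, those of fibroblasts and stroma summed to 9.07 to 658 CPM in resting f/f, 136 to 1462 in resting cre, 20.4 to 25.0 in LPS f/f and 30.0 to 43.8 in LPS cre. Neutrophil markers summed to 14.6 to 186 CPM in the group headed resting cre and to at most 13.2 elsewhere, and those of T, B and NK cells to at most 2.12 CPM in any library, with 1 or 2 of the 9 at 0 in each group. Dendritic cell markers summed to 35.5 to 265 CPM in the resting groups. They summed to 573 to 635 CPM in LPS f/f and to 690 to 713 CPM in LPS cre. Nearly all of these sums was Itgax.

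The 7 IRGs followed one order of groups. Each had its highest mean in the libraries headed resting cre, then LPS cre, then resting f/f, and its lowest in LPS f/f. Summed over the 7 genes, the level was 2997 ± 405 CPM, 1369 ± 82.3, 282 ± 87.3 and 149 ± 13.8 in that order (SD, n = 3 each). In bulk RNA, a change in the number of cells that express a gene and a change in RNA per cell cannot be told apart.

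**Figure D1:**
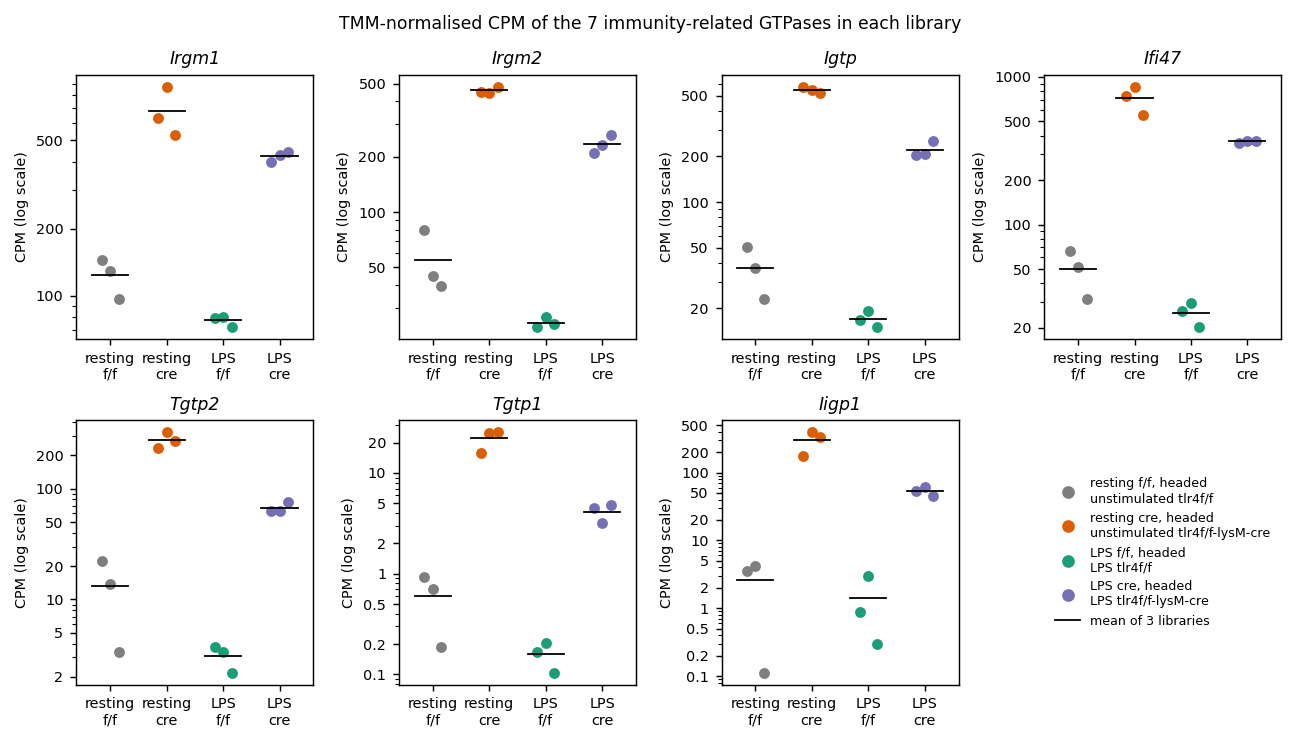
TMM-normalised CPM (y axis, log scale, own range in each panel) of the 7 IRGs in every library, by column heading (x axis; f/f, tlr4f/f; cre, tlr4f/f-lysM-cre). Points are libraries and lines are means of 3; in each panel the points headed resting cre lie highest, those headed LPS cre next, and the f/f groups lie lowest.

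Among the GMS regulators, Irgm1, which has been tied to lysosomes and the Golgi and whose loss leaves mice open to mycobacteria, measured 145, 130 and 96.7 CPM in the 3 libraries headed resting f/f and 629, 874 and 527 CPM in those headed resting cre. It measured 79.4, 80.5 and 72.4 CPM in the libraries headed LPS f/f and 399, 428 and 443 CPM in those headed LPS cre. No library of one group reached into the range of another group for this gene. Irgm2, a regulator found at the Golgi, measured 79.9, 44.8 and 39.7 CPM in resting f/f and 453, 442 and 482 CPM in resting cre, by heading. Under LPS the libraries headed tlr4f/f had 23.8, 26.7 and 24.5 CPM of Irgm2 and those headed tlr4f/f-lysM-cre had 209, 232 and 264 CPM. The spread of Irgm2 in resting f/f came from replicate 1, which was well above the others. Igtp, found at the endoplasmic reticulum and on lipid droplets, measured 51.1, 36.7 and 23.2 CPM in resting f/f and 576, 547 and 522 CPM in resting cre. Its levels were 16.9, 19.1 and 15.1 CPM in LPS f/f and 203, 208 and 252 CPM in LPS cre, again with 4 separate ranges.

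Among the GKS effectors, Ifi47 measured 66.7, 51.4 and 31.5 CPM in the libraries headed resting f/f and 737, 859 and 555 CPM in those headed resting cre. It measured 26.2, 29.4 and 20.3 CPM in LPS f/f and 359, 367 and 370 CPM in LPS cre, the tightest group of any IRG. Iigp1, the member on chromosome 18 and an effector that coats the vacuole of Toxoplasma early, had the highest coefficient of variation of the 7 in every group but LPS cre, where Tgtp1 did (20.8% against 15.8%). Its levels were 3.53, 4.22 and 0.112 CPM in resting f/f, where replicate 3 had 6 counts, and 174, 391 and 332 CPM in resting cre. In LPS f/f Iigp1 was at 0.884, 3.02 and 0.295 CPM and in LPS cre at 53.0, 61.5 and 44.7 CPM. The groups headed resting f/f and LPS f/f overlapped for Iigp1, and the other neighbours in the order did not.

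Tgtp2, an effector that binds the membrane of the vacuole, measured 22.2, 13.9 and 3.37 CPM in resting f/f and 233, 322 and 271 CPM in resting cre, by heading. It measured 3.70, 3.35 and 2.19 CPM in LPS f/f and 63.4, 62.9 and 76.3 CPM in LPS cre. Replicate 3 of resting f/f lay inside the range of LPS f/f. Its near-copy Tgtp1 measured 0.926, 0.701 and 0.187 CPM, then 15.7, 25.2 and 25.3 CPM, in the same unstimulated groups. Under LPS Tgtp1 was at 0.168, 0.206 and 0.104 CPM in tlr4f/f, from 6 to 8 counts per library, and at 4.44, 3.15 and 4.78 CPM in tlr4f/f-lysM-cre. The order of groups was thus the same for both copies, which share most of their reads' possible origins. Tgtp1 held between 4.0% and 8.56% of the counts of the pair in the 12 libraries, and Tgtp2 outnumbered it 10.7 to 24 times. Within the resting f/f heading, replicate 3 was the lowest library for every one of the 7 genes.

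Levels of different genes were compared per kilobase of the deposited transcript length. In resting f/f and LPS f/f, Irgm1 had the highest level, at 55.6 ± 11.1 and 34.8 ± 1.99 CPM per kb, followed by Ifi47 at 27.9 ± 9.87 and 14.2 ± 2.58 (SD, n = 3). Ifi47 had the highest mean in resting cre and LPS cre, at 402 ± 85.8 and 205 ± 3.20 CPM per kb, with Irgm1 at 304 ± 80.2 and 190 ± 10.0. The gap between Ifi47 and Irgm1 was smaller than the sum of their SDs in resting cre and slightly larger in LPS cre. Within each library of these groups Ifi47 was above Irgm1. Igtp, Irgm2 and Tgtp2 came next in all 4 groups. The means of Igtp and Irgm2 did not differ beyond their spread in resting f/f, at 18.3 ± 6.90 and 15.6 ± 6.23 CPM per kb, although Igtp was the higher in each library. Those of Tgtp2 and Iigp1 did not differ beyond their spread in resting cre, at 97.7 ± 16.0 and 95.5 ± 35.9, and neither was the higher in every library. Tgtp1 had the lowest mean in each group, at 0.0568 to 7.86 CPM per kb. The places of Tgtp1 and Tgtp2 in this order are uncertain, since most 150-base stretches of their transcripts are shared. The gap of Tgtp1 from Iigp1 was smaller than the sum of their SDs in resting f/f and LPS f/f. In replicate 3 of resting f/f, Iigp1 (0.036 CPM per kb) was below Tgtp1 (0.0667). The mean levels of Iigp1 were 0.839 ± 0.704 CPM per kb in resting f/f, where single libraries reached 1.13 and 1.35, and 0.447 ± 0.458 in LPS f/f, whereas those of the GMS regulators were 7.11 CPM per kb or more in every group.

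**Figure D2:**
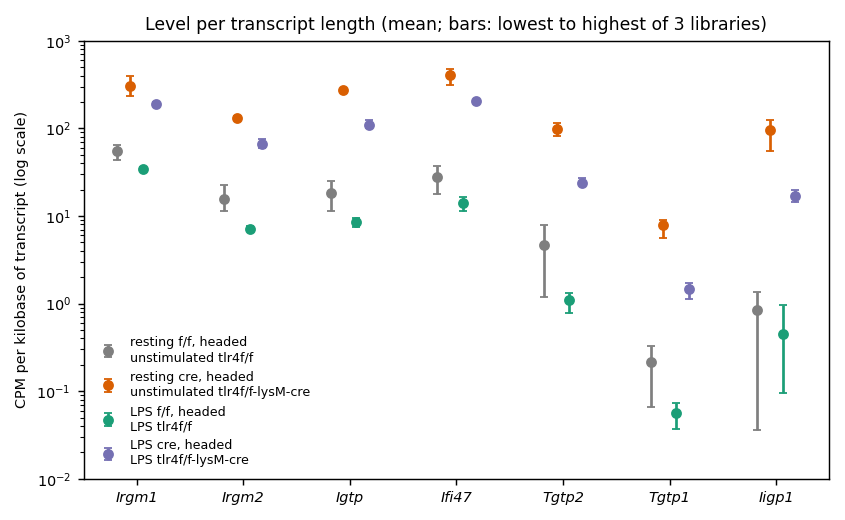
Mean CPM per kilobase of transcript (y axis, log scale) of each IRG (x axis) by column heading, with bars from the lowest to the highest of 3 libraries. Irgm1 and Ifi47 are the highest in every group and Tgtp1 the lowest, and the 7 genes span the widest range in the groups headed tlr4f/f. The levels of Tgtp1 and Tgtp2 depend on the uncertain split of their reads.

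The comparison of the groups headed LPS cre and LPS f/f asks, as headed, what deletion of TLR4 does to macrophages under LPS, and with the headings exchanged, what LPS does in tlr4f/f-lysM-cre cells. All 7 IRGs were higher in the former by edgeR's quasi-likelihood test at a fold change above 2 and a Benjamini-Hochberg adjusted p below 0.01, where 10.8% of the 14551 genes tested were called higher. Their median log2 fold change was 3.87, against -0.02 over all genes. The groups did not overlap for any of the 7, in the direction in which 32.6% of all genes did not overlap. The GMS genes had the smallest changes, with Irgm1 5.51-fold higher (log2 fold change 2.46, SE 0.06, adjusted p 1.27e-11), Irgm2 9.48-fold higher (3.24, SE 0.09, adjusted p 4.48e-10) and Igtp 13.1-fold higher (3.71, SE 0.12, adjusted p 2.08e-08). Ifi47 was 14.6-fold higher (log2 3.87, SE 0.13, adjusted p 6.92e-08), close to Igtp. The largest changes were those of Tgtp2, 22.4-fold higher (log2 4.48, SE 0.19, adjusted p 5.61e-07), of Tgtp1 (log2 4.73, SE 0.31, adjusted p 3.90e-08) and of Iigp1 (log2 5.39, SE 0.66, adjusted p 0.00201). The effectors that were lowest in LPS f/f showed the largest ratios. That group is the divisor of these ratios, so this is not a separate result. The call of Iigp1 was lost without replicate 1 of LPS f/f or without replicate 1 or 2 of LPS cre, where its adjusted p was 0.0116 to 0.0143 by edgeR, and with the replicate number as a block, at 0.0149. The log2 fold change of Iigp1 ran from 4.82 to 6.56 over the alternatives run as headed. Markers of other cells also differed between these groups. Of 4 dendritic cell markers tested, Xcr1 (log2 3.62, adjusted p 5.02e-06) and Ccr7 (1.74, adjusted p 0.00838) were called higher in LPS cre by edgeR, at means of 2.45 and 0.507 CPM there, and the sums of the list, given above, did not overlap. All 6 stromal markers were higher in LPS cre and Pdgfra was called (log2 1.77, adjusted p 0.00388 by edgeR), with the sums given above not overlapping. Of 5 neutrophil markers tested, Camp (log2 3.31, adjusted p 0.00119) and S100a8 (1.06, adjusted p 0.000546) were called higher and Mpo lower (-1.92, adjusted p 0.000525) by edgeR, while their sums overlapped, at 4.57 to 6.65 CPM in LPS f/f and 5.39 to 7.60 in LPS cre. Of the T, B and NK cell markers only Klrb1c could be tested, and it was not called (log2 -1.39, adjusted p 0.0149 by edgeR). Of the 8 macrophage markers 3 were called higher (Adgre1, Cd14 and Lyz2) and none lower. The part of these markers in the result was not tested.

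The unstimulated groups, which differ by genotype as headed and by LPS in tlr4f/f cells when exchanged, gave a similar result. All 7 IRGs were called higher in the libraries headed resting cre than in resting f/f, against 9.26% of 14649 genes called higher, with no overlap in any of them, against 25.0% of genes. Their median log2 fold change was 3.88, and that of all genes -0.08. Irgm1 had the smallest change, log2 2.44 (SE 0.27, adjusted p 0.00136 by edgeR), followed by Irgm2 at 3.06 (SE 0.31, adjusted p 0.00115). Ifi47 and Igtp followed, at log2 3.83 (SE 0.35, adjusted p 0.000854) and 3.88 (SE 0.33, adjusted p 0.000679) by edgeR. Tgtp2 was higher by log2 4.37 (SE 0.69, adjusted p 0.00465), Tgtp1 by 5.17 (SE 0.61, adjusted p 0.00188) and Iigp1 by 6.81 (SE 1.22, adjusted p 0.00708), with edgeR. Standard errors were larger here than between the LPS groups for all 7, beside the larger spread of the unstimulated libraries given above. Iigp1 lost its call without replicate 1 or 2 of resting f/f or any replicate of resting cre (adjusted p 0.0176 to 0.0258, edgeR), and Tgtp2 without replicate 2 of the former or any of the latter (0.0144 to 0.0232). The calls of both were also lost with the replicate number as a block (adjusted p 0.0198 for Iigp1 and 0.0113 for Tgtp2, edgeR) and without the filter on low counts (0.0432 and 0.0169), and that of Iigp1 with counts summed over transcripts (0.0122). Neutrophil and stromal markers also had their highest mean sums in the libraries headed resting cre, with none of them called against resting f/f. Of 3 dendritic cell markers tested, Xcr1 was called higher (log2 4.75, adjusted p 0.00651 by edgeR), at 0.0187 to 0.240 CPM in resting f/f and 2.62 to 5.47 in resting cre. None of the 8 macrophage markers was called, with a median of 0.96. The part of these markers in the result was not tested.

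Within the heading tlr4f/f-lysM-cre, LPS libraries were compared with unstimulated ones, a contrast that becomes the genotype under LPS when the headings are exchanged. Here the IRGs were lower in the libraries headed LPS cre, and 4 of the 7 were called, where 3.66% of 14245 genes were called lower. The called genes were Iigp1 (log2 fold change -2.48, SE 0.31, adjusted p 0.00344 by edgeR), Tgtp1 (-2.40, SE 0.26, adjusted p 0.00246), Tgtp2 (-2.01, SE 0.15, adjusted p 0.00110) and Igtp (-1.30, SE 0.13, adjusted p 0.00190). Ifi47 (log2 -0.96, SE 0.16, adjusted p 0.00891) and Irgm2 (-0.95, SE 0.13, adjusted p 0.00456) passed the adjusted p of edgeR but not the fold of 2, and Irgm1 (-0.66, SE 0.19, adjusted p 0.0410) missed both. At an adjusted p below 0.05 with no fold limit, all 7 were lower, against 14.2% of genes, and none of the 7 overlapped between the groups, against 22.8%. The median over the 7 was -1.30, and over all genes 0.03. These 4 calls needed all 3 libraries of LPS cre: with any 1 of the replicates of LPS cre left out, 0 of the 7 were called, at adjusted p 0.0129 to 0.0295 for the 4 genes by edgeR, while their log2 fold changes stayed between -2.59 and -1.23. With a replicate block 1 was called (Tgtp2), and in a fit of all 12 libraries 2 were (Igtp and Tgtp1). Markers of other cells also differed. All 6 stromal markers had log2 fold changes below 0, with a median of -4.16, and Col1a1 (-5.11, adjusted p 0.00871) and Col1a2 (-4.75, adjusted p 0.00935) were called by edgeR. The 5 neutrophil markers tested were below 0 too, with a median of -3.55 and none called, and of 4 dendritic cell markers tested 3 were below 0, 1 was above it and none was called. Of the 8 macrophage markers 7 were below 0 and only Lyz2 was called. The part of these markers in the result was not tested.

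Within the heading tlr4f/f, LPS libraries were compared with unstimulated ones, which becomes the genotype without LPS when exchanged. No IRG was called, and neither was any of the 14712 genes (0%). All 7 log2 fold changes were below 0, from -2.09 (SE 0.66) for Tgtp2 and -1.92 (SE 0.68) for Tgtp1 to -0.66 (SE 0.16) for Irgm1, with a median of -1.11 against -0.03 over all genes. Igtp was at -1.11 (SE 0.29), Irgm2 at -1.12 (SE 0.28), Ifi47 at -0.97 (SE 0.29) and Iigp1 at -0.91 (SE 1.26). The value of Iigp1 ran from -2.15 to -0.39 over the alternatives run as headed. Adjusted p-values by edgeR were between 0.0863 (Irgm1 and Irgm2) and 0.693 (Iigp1), and 6 of the 7, without Iigp1, had an unadjusted p below 0.05, against 24.6% of genes. For Irgm1, Irgm2, Igtp and Ifi47 the groups did not overlap, against 18.1% of genes in this direction. DESeq2 called 3 of the 7 lower (Igtp, Irgm2 and Tgtp2) among 467 genes in all, so that the absence of calls depended on the tool. Of the markers of other cells none was called here, with a median log2 fold change of -2.48 over the 6 stromal markers, 4 of them below 0, and of -0.33 over 5 neutrophil markers. Itgax was at 2.64 (adjusted p 0.113, edgeR) with no overlap of the groups. Of the 8 macrophage markers 7 were below 0, with a median of -1.03 and none called. The part of these markers in the result was not tested.

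**Figure D3:**
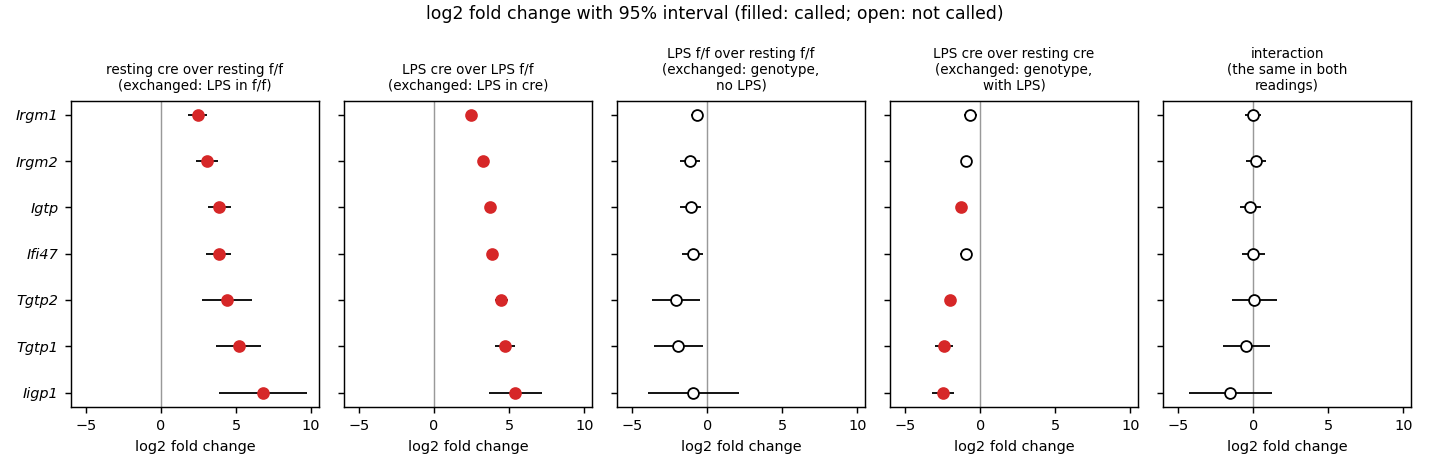
log2 fold change of each IRG (x axis) with its 95% interval in the 4 comparisons and the interaction, with in brackets the name of each contrast when headings are exchanged; filled points were called at a fold above 2 and adjusted p below 0.01. All 7 are filled and right of 0 in the first panels, left of 0 in the next ones, with 4 filled between the tlr4f/f-lysM-cre groups, and the intervals of the interaction all include 0.

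Whether the contrast of the cre and f/f headings differed with LPS is asked by the interaction of genotype and LPS over the 12 libraries, which is the same term in both readings. No IRG was called, against 157 of 15792 genes (0.994%), none had an unadjusted p below 0.05 with edgeR where 23.4% of genes did, and DESeq2 called none. Irgm1 was the closest to 0, at 0.00 on the log2 scale with a 95% interval from -0.54 to 0.54. Ifi47 was at 0.01 (-0.77 to 0.78), Irgm2 at 0.17 (-0.52 to 0.85) and Igtp at -0.19 (-0.91 to 0.52). Intervals were wider for Tgtp2 at 0.07 (-1.45 to 1.59), Tgtp1 at -0.47 (-2.04 to 1.09) and Iigp1 at -1.53 (-4.32 to 1.26), so that for these 3 a difference of more than 2-fold between the contrasts remained within the interval. For the 4 others the interval ended within a log2 difference of 1 on both sides.

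Profiles of the 7 genes over the 12 libraries were alike, which describes their shared order of groups. Pearson's r of log2 CPM with the mean of the other IRGs ran from 0.959 (Iigp1) to 0.996 (Igtp), and between pairs from 0.937 (Irgm2 and Iigp1) to 0.997 (Irgm1 and Ifi47). Many genes shared this pattern, with r above 0.95 in 556 of 15785 genes compared. The 5 closest to the IRG profile were Mnda (r = 0.997), Ifi204 (0.996), Bcl3 (0.995), Rsad2 (0.995) and Pnp (0.994). Mnda and Ifi204 belong to the interferon-inducible p200 family of DNA-binding proteins, Rsad2 encodes the antiviral enzyme viperin, Bcl3 an atypical IkB protein that works with NF-kB in the nucleus, and Pnp an enzyme of purine breakdown. Mean levels of Rsad2 were 72.6, 8195, 28.8 and 1929 CPM in the libraries headed resting f/f, resting cre, LPS f/f and LPS cre.

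Genes around the IRGs were taken by list and are given by heading. With the headings exchanged, the contrast of the LPS groups again reads as LPS in tlr4f/f-lysM-cre cells, that of the unstimulated groups as LPS in tlr4f/f cells and that of the tlr4f/f-lysM-cre groups as genotype under LPS. Of 11 further IRG genes and relatives, 10 were in the table, and 4 of 8 tested were called higher in the libraries headed LPS cre than in LPS f/f, with none lower. Gm12250 (Irgb10), a GKS effector, had the largest change of these, from 14.2 ± 3.11 to 219 ± 16.6 CPM (SD, n = 3; log2 3.97, adjusted p 2.90e-06 by edgeR). Between the unstimulated groups 5 of 9 were called higher, and between the tlr4f/f-lysM-cre groups 1 of 9, Gm4841, was called lower. The median of the list was 1.71 between the LPS groups, below that of the 7 IRGs.

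Guanylate-binding proteins, larger interferon-induced GTPases that meet IRGs on the same vacuoles, were called higher for 9 of 10 tested between the LPS groups and 8 of 10 between the unstimulated groups, by heading. Their medians of 5.60 and 5.79 on the log2 scale were above those of the IRGs. The gene with the largest difference, Gbp5, was at 2.74 ± 0.671 CPM in LPS f/f and 584 ± 52.7 CPM in LPS cre (SD, n = 3; log2 7.76, adjusted p 2.62e-09 by edgeR). Between the tlr4f/f-lysM-cre groups 6 of 11 were called lower in the libraries headed LPS cre.

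Among ligands and receptors of interferon, 5 of 10 could be tested between the LPS groups, and 3 were called higher in LPS cre. Ifngr1, a chain of the interferon gamma receptor, went the other way, from 114 ± 1.68 CPM in LPS f/f to 66.4 ± 2.92 in LPS cre (SD, n = 3; log2 -0.77, adjusted p 6.32e-08 by edgeR), short of the fold of 2, and was at log2 -1.04 (adjusted p 0.0219, edgeR) between the unstimulated groups, with no overlap in either. Ifnb1, which encodes interferon beta, had the largest change, but its counts were low: 0 in every library headed LPS f/f, 1 to 2 in resting f/f, 13 to 23 in LPS cre and 96 to 150 in resting cre. The order of the latter groups was that of the IRGs. Of 12 genes of interferon signalling (kinases, transcription factors and feedback inhibitors), 8 were called higher between the LPS groups and 8 between the unstimulated groups, none was called lower, and the medians were 2.37 and 2.28. Socs3, a feedback inhibitor of cytokine signalling, had the largest change, from 2.40 ± 0.713 to 469 ± 8.76 CPM (SD, n = 3; log2 7.65, adjusted p 1.28e-09 by edgeR). In LPS against resting cre, 5 of these 12 were called lower.

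Genes for proteins that act with IRGs at the vacuole were taken from further lists. None of 11 genes of ATG8 conjugation, the autophagy machinery that loads effectors onto the vacuole, was called between the LPS groups, where their median was 0.13. Atg7, the enzyme that activates ATG8, had the largest difference there, from 62.8 ± 4.45 CPM in LPS f/f to 38.9 ± 0.982 in LPS cre (SD, n = 3; log2 -0.68, adjusted p 9.39e-07 by edgeR), short of the fold of 2. Between the unstimulated groups Atg7 was the only one of the 11 to be called, at log2 -1.11 (adjusted p 0.00411, edgeR), in the direction of 7.81% of all genes. Of 3 genes that place or read ubiquitin on IRG-coated vacuoles, 2 were called higher in both contrasts, among them the ubiquitin ligase Trim21, at 23.6 ± 1.66 and 150 ± 13.4 CPM in the LPS groups (SD, n = 3; log2 2.68, adjusted p 6.04e-11 by edgeR).

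**Figure D4:**
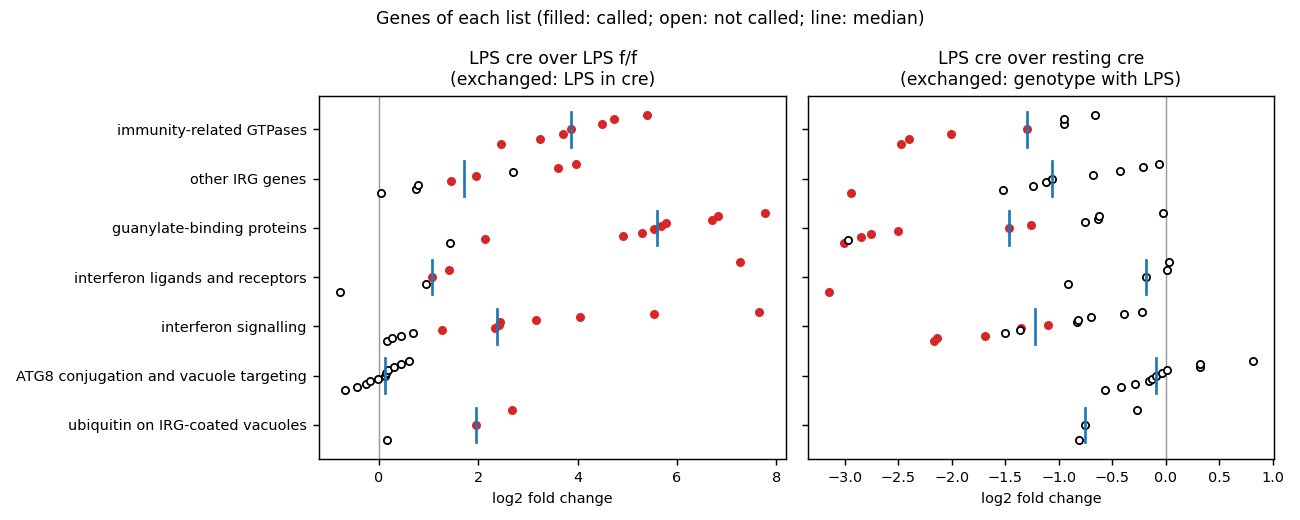
log2 fold changes (x axis) of the genes of each list (y axis) between LPS cre and LPS f/f (left) and between LPS and resting cre (right), by heading; points are genes, filled where called, and vertical lines are medians. The 7 IRGs have a median of 3.87 on the left and -1.30 on the right, between guanylate-binding proteins and other IRG genes on both sides, and the ATG8 genes lie near 0.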

How the data were processed

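Raw whole-number counts for 115140 transcripts in 12 libraries, with the length of each transcript, were deposited. Per the labels and the study's methods, the authors removed ribosomal RNA, sequenced paired reads, trimmed them with Trimmomatic 0.36, aligned them to mm10 with HISAT2 and counted with HTSeq. The labels also call the data polyA RNA. For each gene the transcript with the highest total was kept. Libraries were grouped by their headings. Counts were tested with edgeR 4.0.16 under R 4.3.3 (filterByExpr, TMM, robust quasi-likelihood fit and test, Benjamini-Hochberg adjustment over all genes tested), on the 6 libraries compared, or on 12 for the interaction. Genes were called at a fold change above 2 and adjusted p below 0.01, the criteria of the study, which used DESeq. Alternatives with DESeq2 1.42.0, limma 3.58.1 and other filters and normalizations are given at the end. Counts carry no molecular identifiers, so they are not independent molecules. Correlations used log2 CPM with a prior count of 2. Transcript sequences came from GENCODE vM21 and promoters from RefSeq, aligned with Biopython 1.88. The members and lists were chosen with earlier results of these data known. Named genes are the 7 members, Tlr4, Lyz2 and Il1b, for each list the gene with the largest change between the LPS groups, and the 5 genes most like the members. Any other gene of a list could be named, and those that were had been seen with their values. The result of 1 gene of these lists was left out of its list and is not reported here.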

Additional observations from a re-analysis of the deposited data

How the results depend on the processing

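Exchanging the headings gave 7 IRGs called higher for LPS in tlr4f/f (in place of 0), 7 higher for LPS in the cre genotype (in place of 4 lower), 4 lower for genotype with LPS (in place of 7 higher) and 0 for genotype without LPS (in place of 7 higher). With DESeq2 in addition, chosen after seeing the data, these were 7, 7, 4 lower and 3 lower. As headed, DESeq2 called 3 lower between the f/f groups. For LPS in the cre genotype a fit of all 12 libraries called 2 and the replicate block 1. Whether replicate numbers pair the libraries was not settled: deviations of same-numbered libraries correlated above 0.1 in 5 of 18 pairs (r from -0.04 to 0.47). Between resting f/f and resting cre, r was 0.472, 0.34 and 0.0138 for same numbers and -0.49 to 0.203 for different ones. Between LPS f/f and LPS cre, r was 0.0583, 0.0723 and 0.19 for same numbers and -0.114 to 0.0447 for different ones. Leaving out 1 library at a time gave 0 to 0 calls for LPS in tlr4f/f, 0 to 5 for LPS in the cre genotype, 6 to 7 for genotype with LPS, 5 to 7 for genotype without LPS and 0 to 0 for the interaction. Outside the interaction no IRG changed direction under any alternative run as headed. Interaction values near 0 changed sign: Irgm1 was 0.0855 with limma voom, 0.0329 without a filter, 0.0176 with the replicate block and 0.0482 summed over transcripts. Tgtp2 was -0.0025 with DESeq2 and -0.0161 with the block. Ifi47 was -0.0659 with DESeq2, -0.066 with RLE factors and -0.0161 with at least 10 counts in every library. With Tgtp1 and Tgtp2 summed, the value listed for Tgtp1 was 0.0379. Leaving out 1 library gave -0.15 to 0.24 for Irgm1, -0.19 to 0.37 for Irgm2, -0.48 to 0.0741 for Igtp, -0.51 to 0.55 for Tgtp2 and -0.24 to 0.27 for Ifi47. Over all alternatives the interaction value of Iigp1 stayed below 0, from -2.04 to -0.30. That of Tgtp1 ran from -0.88 to 0.0379, where the upper end belongs to the summed pair. With Tgtp1 counted alone, its value stayed below 0. The causes were not tested. Counts were lowest for Tgtp1 and Iigp1, at 6 to 54 and 6 to 265 in the groups headed tlr4f/f, and whether depth limited any call was not tested.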
